A study of Mus musculus with 49 samples.

Results

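The genes described here belong to the families of voltage-gated sodium channels, voltage-gated calcium channels and HCN channels. Members were the probe sets with a single platform gene symbol that starts with Scn plus a digit, with Cacn, or with Hcn plus a digit. The rule found 29 of the 11807 genes with a symbol of their own on the array, carried by 41 of the 22626 probe sets tested. Each gene is given by its brightest probe set over all 49 arrays, and 10 of the 29 genes had more than 1 probe set. Other probe sets of a called gene are given where their call differed. Other genes of these families were not analysed here.

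The arrays profiled CA1, CA3 and dentate gyrus (DG), each cut by laser from cresyl violet stained hippocampal sections of female mice aged 6.1 months, with the RNA amplified before hybridisation. rTg4510 mice carried a tetracycline-responsive transgene for human P301L mutant tau (FVB/N background) and a CaMKIIα-driven tTA transactivator (another inbred background) that switches it on in forebrain excitatory neurons. tTA mice carried only the transactivator, and DN mice carried neither transgene, so tTA differs from rTg4510 by the tau transgene, and DN differs from tTA by the transactivator. The groups held 5 rTg4510, 5 tTA and 6 DN arrays in CA1, 6, 5 and 5 in CA3, and 6, 5 and 6 in DG, from 17 mice (6 rTg4510, 5 tTA and 6 DN). The expression of the human tau transgene was not measured by these probe sets. DN mice carry a separate run of animal numbers, and no batch or date was given, so any shared handling of the DN mice cannot be told apart from genotype.

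Voltage-gated sodium channels open on depolarisation and carry the rising phase of the action potential. Their pore is an alpha subunit, and beta subunits adjust gating and surface density. Voltage-gated calcium channels turn depolarisation into calcium entry, which drives transmitter release and calcium-dependent gene expression. Their pore is an alpha1 subunit, accompanied by an intracellular beta subunit and an extracellular alpha2delta subunit. The gamma family includes Cacng1, a subunit of the muscle calcium channel, and several members that instead bind AMPA receptors. HCN channels open on hyperpolarisation and set the resting excitability of pyramidal dendrites.

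By gene name the members were 7 sodium alpha subunits (Scn1a, Scn2a, Scn3a, Scn7a, Scn8a, Scn10a and Scn11a), 1 sodium beta subunit (Scn3b), 7 high-voltage calcium alpha1 subunits (Cacna1a, Cacna1b, Cacna1c, Cacna1d, Cacna1e, Cacna1f and Cacna1s), 2 low-voltage alpha1 subunits (Cacna1g and Cacna1h), 3 alpha2delta subunits (Cacna2d1, Cacna2d2 and Cacna2d3), 1 beta subunit (Cacnb1), 7 gamma subunits (Cacng1, Cacng2, Cacng3, Cacng5, Cacng6, Cacng7 and Cacng8) and 1 HCN channel (Hcn2). Over all arrays 18 genes lay at or above the median level of all probe sets, 5.04 on the log2 scale, and 11 lay below it. The 11 dim genes were Scn3a, Scn7a, Scn10a, Scn11a, Cacna1b, Cacna1f, Cacna1s, Cacna1g, Cacng1, Cacng6 and Cacng8. Scn10a and Scn11a are channels of sensory neurons, Cacna1s of skeletal muscle and Cacna1f of the retina. Cacna1b, the N-type channel of presynaptic terminals, was dim on its brightest probe set.

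Of the 29 genes, 23 had a start site in the RefSeq promoter table (GRCm38.p6). The 250 bases before the start are shown for Scn1a, whose listed start is the annotated edge of the gene. In CA1 Scn1a was called higher in rTg4510 than in DN mice on its brightest probe set only. The window lies on the minus strand (chr2:66440838-66441087) and is written 5′ to 3′ on the gene's strand.
Scn1a: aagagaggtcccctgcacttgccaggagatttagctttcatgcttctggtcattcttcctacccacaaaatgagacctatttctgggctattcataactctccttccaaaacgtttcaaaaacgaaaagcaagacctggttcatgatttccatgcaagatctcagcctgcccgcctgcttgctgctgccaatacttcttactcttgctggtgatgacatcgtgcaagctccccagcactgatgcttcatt
No base is in capitals, because the window held no GC box (GGGCGG), no full cyclic AMP response element (TGACGTCA) and no TATA box (TATAAA) on either strand. Of the 32851 windows in the table, 32.7% held the GC box, 1.55% the cyclic AMP response element and 12.4% the TATA box. The Scn1a window was 46.8% G and C, against a median of 52.4% over all windows. These matches describe letters only.

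The deposited values were log2 RMA intensities whose array medians lay between 4.95 and 5.06. Levels below are log2 values as mean ± SD, differences are log2 with their standard error (SE), and a gene was called at an adjusted p below 0.05 in limma over all 22626 probe sets. In DN mice each subfield carried its own marker genes. The summed level of the CA1 pyramidal markers was 12.39 to 12.54 in CA1, against 8.41 to 9.47 in CA3 and 8.65 to 9.36 in DG. The CA3 pyramidal markers summed to 11.50 to 11.63 in CA3 although Coch was below the median level of all probe sets there, and the dentate granule markers to 11.63 to 11.92 in DG, with no other subfield of DN mice above 9.90 for either list. The lowest median correlation of an array with its group was 0.975, in tTA CA1. DN arrays were closer to each other than those of the other genotypes. This lowest value was 0.991 to 0.992 in the DN groups and 0.975 to 0.984 in the rTg4510 and tTA groups.

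The channel genes were first compared between subfields of DN mice, which gives the baseline on which the genotypes act. Between CA1 and CA3, 3 members were higher and 4 lower in CA1, that is 7 of 29 where the rate over all probe sets was 12.9% (6.26% higher, 6.64% lower). Between CA1 and DG, 8 were higher and 2 lower in CA1 (17.5% of all probe sets, 8.89% higher and 8.59% lower). Between CA3 and DG, 4 were higher and 3 lower in CA3 (21.7% of all probe sets, 11.3% higher and 10.4% lower).

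Scn3b and Cacnb1 were the members with the highest CA1 levels relative to the other subfields. Scn3b, the sodium channel beta3 subunit, averaged 9.36 ± 0.14 in CA1 (n = 6), 8.21 ± 0.20 in CA3 (n = 5) and 8.08 ± 0.11 in DG (n = 6). The difference was 1.15 for CA1 over CA3 (SE 0.15, adjusted p = 4.84e-08) and 1.27 for CA1 over DG (SE 0.14, adjusted p = 7.8e-10), and every CA1 array lay above every array of the other 2 subfields. CA3 and DG differed by 0.12, which was not called (adjusted p = 0.662). Cacnb1, an intracellular beta subunit that carries alpha1 subunits to the membrane, averaged 6.97 ± 0.11 in CA1, 5.99 ± 0.35 in CA3 and 5.36 ± 0.35 in DG, with CA1 called over CA3 by 0.99 (SE 0.26, adjusted p = 0.00561) and over DG by 1.60 (SE 0.25, adjusted p = 1.84e-06). The dimmest Cacnb1 probe set was called in neither (0.35 and 0.36, adjusted p = 0.117 and 0.0692). Cacng3, an AMPA receptor auxiliary subunit, followed the same order at 7.11 ± 0.24, 6.27 ± 0.20 and 6.05 ± 0.30, with CA1 called over CA3 by 0.84 (adjusted p = 0.00309) and over DG by 1.06 (adjusted p = 5.73e-05), and CA3 and DG again did not differ beyond their spread (difference 0.22, adjusted p = 0.558).

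Other members peaked in CA3. Cacng2, the AMPA receptor auxiliary subunit stargazin, averaged 6.02 ± 0.20 in CA1, 7.33 ± 0.28 in CA3 and 6.05 ± 0.14 in DG, a difference of -1.32 for CA1 minus CA3 (SE 0.19, adjusted p = 4.37e-07) and 1.28 for CA3 minus DG (SE 0.19, adjusted p = 4.9e-07). Cacna1a, the P/Q-type pore of central synapses, averaged 7.13 ± 0.28 in CA1, 7.83 ± 0.19 in CA3 and 7.10 ± 0.27 in DG. Both CA3 differences were called (adjusted p = 0.000108 and 3.28e-05). Scn1a, the NaV1.1 alpha subunit that is strong in inhibitory interneurons, was graded at 8.40 ± 0.20 in CA1, 8.88 ± 0.13 in CA3 and 7.94 ± 0.16 in DG, with CA1 lower than CA3 by a difference of -0.49 (SE 0.12, adjusted p = 0.00266) and CA3 higher than DG by 0.95 (SE 0.12, adjusted p = 1.72e-08). The second Scn1a probe set was not called between CA1 and CA3 (-0.35, adjusted p = 0.229). Cacna1c, the L-type CaV1.2 pore, averaged 7.00 ± 0.25 in CA1 and 8.09 ± 0.66 in CA3, a difference of -1.09 (SE 0.34, adjusted p = 0.0262), with DG between them at 7.61 ± 0.71. That call was lost without 6 of the 11 arrays in turn (adjusted p = 0.0551 to 0.0858), remaining only without the CA1 array of DN mouse4806, mouse4825, mouse4866 or mouse4886 or the CA3 array of DN mouse4886, and was lost without the mouse as a block (0.0545).

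DG differed from both other subfields for Scn1a, Cacna1h and Cacna2d3. Scn1a was also higher in CA1 than in DG, by 0.46 (SE 0.11, adjusted p = 0.00192). Cacna1h, the T-type CaV3.2 pore, averaged 6.45 ± 0.26 in CA1, 5.80 ± 0.32 in CA3 and 7.24 ± 0.31 in DG, a difference of -1.43 for CA3 minus DG (SE 0.26, adjusted p = 3.86e-05) and -0.79 for CA1 minus DG (SE 0.25, adjusted p = 0.0209). The second of these was lost without the CA1 array of DN mouse4797 (adjusted p = 0.0552) or mouse4883 (0.0537), or the DG array of DN mouse4797 (0.059) or mouse4886 (0.0556). Cacna2d3, an alpha2delta subunit, was low in DG at 7.19 ± 0.08, against 8.21 ± 0.23 in CA1 and 8.26 ± 0.10 in CA3, with differences of 1.02 for CA1 over DG (SE 0.19, adjusted p = 3.95e-05) and 1.07 for CA3 over DG (SE 0.20, adjusted p = 3.66e-05). Cacng5, a gamma subunit that also binds AMPA receptors, was lower in CA3 than in DG (4.69 ± 0.61 and 6.14 ± 0.21, difference -1.42, SE 0.49, adjusted p = 0.0289), a call lost without the CA3 array of DN mouse4797 (0.104) or mouse4866 (0.0615) or the DG array of DN mouse4797 (0.0567). A second Cacng5 probe set was not called (-0.18, adjusted p = 0.569). Cacna1d, the L-type CaV1.3 pore, was lower in CA1 than in DG at 6.00 ± 0.26 and 6.49 ± 0.36 (difference -0.49, SE 0.18, adjusted p = 0.0466), and lost its call without 8 of the 12 arrays in turn (adjusted p = 0.0558 to 0.148), all but the CA1 arrays of DN mouse4806 and mouse4866 and the DG arrays of DN mouse4806 and mouse4825. It was also lost without the mouse as a block (0.0808) and with its probe sets averaged (0.116), the second probe set being at -0.09 (adjusted p = 0.785). Scn3a, the NaV1.3 alpha subunit best known from the developing brain, was dim and lower in CA3 than in DG at 3.70 ± 0.09 and 4.10 ± 0.29 (difference -0.40, SE 0.10, adjusted p = 0.00139).

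**Figure D1:**
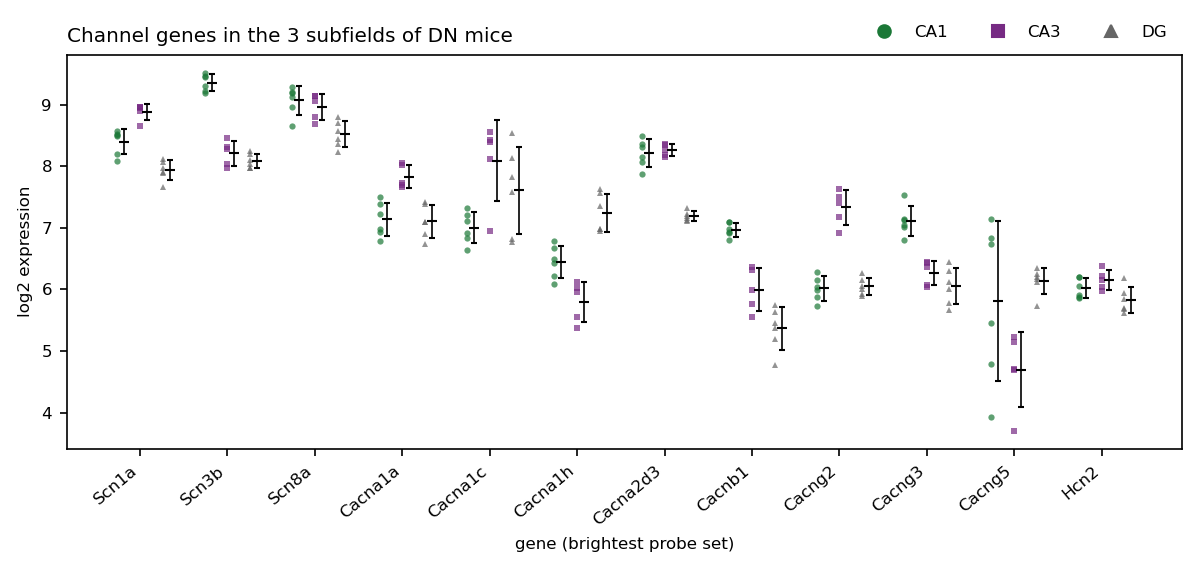
Log2 RMA level (vertical axes) of 12 channel genes in CA1, CA3 and DG of DN mice; points are single arrays and the bars show the mean ± SD. The CA1 arrays of Scn3b, at 9.18 to 9.52, stand over those of CA3 and DG, Cacng2 peaks in CA3, and Cacna1h is highest in DG.

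The remaining members gave these levels in DN mice. Scn2a, the NaV1.2 alpha subunit of excitatory neurons, averaged 10.47 ± 0.16 in CA1, 10.46 ± 0.18 in CA3 and 10.19 ± 0.21 in DG. Scn8a, the NaV1.6 alpha subunit of the axon initial segment, averaged 9.07 ± 0.23, 8.96 ± 0.21 and 8.52 ± 0.21 in the same order. Both were called higher in CA1 than in DG (0.28, adjusted p = 0.0468, and 0.55, adjusted p = 0.0488), which 8 and 10 of the 12 omissions of a single array undid, up to an adjusted p of 0.155 and 0.116, as did leaving out the mouse as a block (0.0762 and 0.1). The second Scn2a probe set was higher in CA3 than in DG (0.60, adjusted p = 0.00976), where the brightest was not called (0.27, adjusted p = 0.0694). The call was kept without the CA1 array of DN mouse4797 or mouse4866 or the DG array of DN mouse4825 or mouse4866 for Scn2a, and without the CA1 or DG array of DN mouse4797 for Scn8a. Cacna1g, the T-type CaV3.1 pore and a dim gene, was also higher in CA1 than in DG (4.17 ± 0.36 and 3.53 ± 0.16, difference 0.64, SE 0.18, adjusted p = 0.00815). Cacna1e, the R-type CaV2.3 pore, averaged 8.11 ± 0.31, 8.25 ± 0.27 and 8.12 ± 0.29, and the alpha2delta subunit Cacna2d1, a binding site of gabapentin, 9.10 ± 0.27, 9.04 ± 0.23 and 8.86 ± 0.36. Neither of the last 2 differed beyond its spread between any pair of subfields (adjusted p = 0.397 to 0.985). Cacna2d2, another alpha2delta subunit, averaged 8.36 ± 0.29 in CA1, 8.03 ± 0.49 in CA3 and 8.18 ± 0.23 in DG. Hcn2, the HCN2 pore, averaged 6.02 ± 0.16, 6.15 ± 0.16 and 5.83 ± 0.21. Cacng7, an AMPA receptor auxiliary subunit, averaged 5.81 ± 0.24, 5.81 ± 0.27 and 6.03 ± 0.19. The dim members lay between 2.87 (Scn7a in DG) and 4.98 (Cacng8 in CA3) in every DN subfield.

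The comparison of rTg4510 with tTA mice, which differ by the tau transgene, gave the difference that goes with that transgene in each subfield. In CA1, 4 members were lower and 1 higher in rTg4510 mice, 5 of 29, where the rate over all probe sets was 10.6% (6.01% higher, 4.62% lower). The median difference of the 29 members was -0.14, against -0.03 over all probe sets, and 22 of 29 were negative. Over the 18 members at or above the median level it was -0.10, and 12 of the 18 were negative. In DG 1 member was called, lower in rTg4510 mice (0.782% of all probe sets, 0.446% higher and 0.336% lower). In CA3 limma called 0 members (1.13% of all probe sets), with 5 at an unadjusted p below 0.05 and 0 by Fisher's least significant difference test. The share of all probe sets at an unadjusted p below 0.05 was not counted. The unadjusted counts here and below therefore cannot be read as an excess.

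Scn3b had the largest called difference of any member in CA1. It stood at 8.17, 8.15, 7.51, 7.17 and 6.82 in the 5 rTg4510 arrays, against 8.80, 8.94, 9.02, 9.38 and 8.74 in the 5 tTA arrays, and its lowest, median and highest values in DN arrays were 9.18, 9.37 and 9.52. Every rTg4510 array lay below every tTA and every DN array, and the rTg4510 arrays spread most, with an SD of 0.60 against 0.25 in tTA and 0.14 in DN mice. The difference from tTA was -1.41 (SE 0.22, adjusted p = 0.00104), 2.67-fold lower, and the call held under every alternative tried, with differences of -1.57 to -1.23 and adjusted p of 0.000336 to 0.0175. The dimmer Scn3b probe set fell by 1.72 (SE 0.36, adjusted p = 0.00673), although its rTg4510 value of 7.05 in 1 mouse was above its tTA value of 6.97 in another.

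Outside CA1 the 2 groups overlapped for Scn3b. In CA3 it lay between 7.93 and 8.47 in rTg4510 mice and between 7.93 and 8.14 in tTA mice (difference 0.27, SE 0.11, adjusted p = 0.245). In DG it lay between 7.11 and 8.08 in rTg4510 mice and between 7.22 and 7.82 in tTA mice (difference -0.01, SE 0.14, adjusted p = 0.994). The difference itself was set against that of the other subfields in a model of all 49 arrays with the mouse as a block. The rTg4510 minus tTA difference was lower in CA1 than in the other subfields, the CA1 minus CA3 value being -1.69 (SE 0.21, adjusted p = 1.17e-05) and the CA1 minus DG value -1.41 (SE 0.21, adjusted p = 7.02e-05). Scn3b was the 1 member called for the CA1 minus CA3 difference (3.88% of all probe sets) and 1 of 3 called for the CA1 minus DG difference (5.45% of all probe sets). Both held under every alternative, at -1.93 to -1.53 and -1.67 to -1.25. The gene lies on chromosome 9 (GRCm38.p6, chr9:40269216-40291618).

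**Figure D2:**
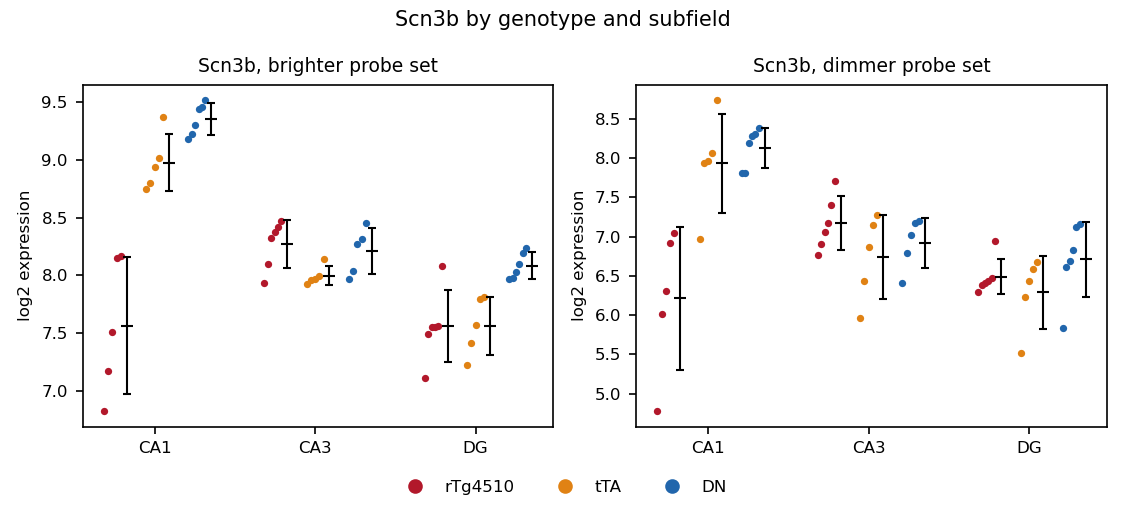
Log2 RMA level (vertical axes) of the 2 Scn3b probe sets in CA1, CA3 and DG; points are single arrays of rTg4510, tTA and DN mice, in that order and sorted by value, and bars give the mean ± SD. For the brighter probe set the 5 rTg4510 CA1 arrays, 6.82 to 8.17, lie below all tTA and DN arrays of CA1, while the genotypes overlap in CA3.

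Calcium channel subunits made up the other called members in CA1. Cacnb1 stood at 5.02, 6.32, 5.84, 5.34 and 5.11 in rTg4510 arrays, against 6.30, 6.45, 5.94, 7.10 and 6.09 in tTA arrays, a difference of -0.85 (SE 0.23, adjusted p = 0.0275). Cacna1h stood at 4.81, 4.86, 6.30, 5.30 and 5.30 in rTg4510 arrays, against 6.35, 6.47, 5.51, 6.18 and 6.28 in tTA arrays, a difference of -0.84 (SE 0.25, adjusted p = 0.0376). The groups overlapped for both genes, with 1 rTg4510 array inside the tTA range for each. A second Cacnb1 probe set also fell, by 0.95 (adjusted p = 0.0375), and the last one was not called (difference -0.13, adjusted p = 0.711). Cacna2d2 went the other way, at 8.95, 8.59, 9.63, 9.67 and 9.58 in rTg4510 arrays, against 7.95, 8.52, 8.83, 8.15 and 8.60 in tTA arrays, a difference of 0.87 (SE 0.22, adjusted p = 0.0182), with 1 rTg4510 array inside the tTA range. Its other probe sets were not called (differences 0.42 and -0.02, adjusted p = 0.203 and 0.9). Cacna1f was lower by a difference of -0.30 (SE 0.08, adjusted p = 0.0275) with no overlap, at 3.81 ± 0.09 in rTg4510 and 4.11 ± 0.08 in tTA arrays, both below the median level of all probe sets.

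These 4 calls rested on more than the 2 compared genotypes. With only rTg4510 and tTA arrays in the fit, Cacnb1, Cacna1h, Cacna1f and Cacna2d2 were not called (adjusted p = 0.0654 to 0.117). Nor were they with the Actb 3′ minus 5′ control signal, a measure of RNA integrity, as a covariate (0.0517 to 0.111). With that covariate the differences were -0.87 for Cacnb1, -0.99 for Cacna1h, -0.30 for Cacna1f and 0.71 for Cacna2d2. The control averaged -0.48 in rTg4510 and -0.70 in tTA arrays of CA1, so it moved with the genotype here too. Cacna2d2 lost its call without the array of rTg4510 mouse4666 (0.0515), and Cacnb1 without tTA mouse4626 (0.066) or mouse4580 (0.0554) or rTg4510 mouse4666 (0.0758), mouse4535 (0.0719) or mouse4653 (0.0613). Cacna1f lost it without rTg4510 mouse4653 (0.0568) or mouse4666 (0.0748) or tTA mouse4580 (0.0669) or mouse4637 (0.0562), and Cacna1h without 8 of the 10 arrays in turn (0.0673 to 0.0941), all but rTg4510 mouse4600 and tTA mouse4592. The CA1 minus DG difference of the effect was called for Cacna1h at -1.25 (SE 0.38, adjusted p = 0.0438), which no longer passed without 15 of 21 arrays in turn (0.0545 to 0.0921) or without the mouse as a block (0.0795). It was kept without the CA1 array of rTg4510 mouse4600 or tTA mouse4592, or the DG array of rTg4510 mouse4549, mouse4621 or mouse4653 or tTA mouse4570. It was also called for Cacng1 at -0.34 (adjusted p = 0.0215), a dim gene, but not without the CA1 (0.0622) or DG (0.0619) array of tTA mouse4626.

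Markers of other cells moved with the CA1 comparison, in which 6.01% of all probe sets were higher and 4.62% lower. Of 11 microglial markers measured, 9 were higher in rTg4510 mice, as were 7 of 9 astrocyte, 3 of 7 oligodendrocyte and 7 of 10 interneuron markers, while all 3 CA1 pyramidal markers measured were lower and limma called 0 of 7 pan-neuronal markers (2 at an unadjusted p below 0.05). The summed CA1 pyramidal level was 9.73 to 10.91 in rTg4510 arrays, against 11.35 to 12.13 in tTA arrays. The microglial sum was 11.72 to 12.68 in rTg4510 and 10.16 to 10.83 in tTA arrays, and the interneuron sum 11.86 to 12.74 in rTg4510 and 11.34 to 11.99 in tTA arrays. Lefty1, a CA1 pyramidal marker, was below the median level in rTg4510 CA1. The part of these shifts in the channel gene differences was not tested, and in such tissue fewer cells of a type and less RNA per cell cannot be told apart.

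Scn1a and Cacna2d1 gave different answers on their probe sets. In CA1 the brightest Scn1a probe set differed by 0.38 between rTg4510 and tTA mice (adjusted p = 0.0845) and its other probe set was called at 0.75 (adjusted p = 0.0169). In CA3 the brightest Cacna2d1 probe set differed by 0.33 (adjusted p = 0.271), and a second one was higher in rTg4510 mice with no overlap (7.80 ± 0.21 and 7.13 ± 0.22 in tTA mice, difference 0.67, SE 0.13, adjusted p = 0.0209). The same second probe set was called for the CA1 minus CA3 (-1.07, adjusted p = 0.00265) and CA1 minus DG (-0.91, adjusted p = 0.00529) difference of the effect, and the brightest was not (-0.42, adjusted p = 0.407, and -0.55, adjusted p = 0.222).

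The DG member was Cacng7. It lay between 5.70 and 6.58 in rTg4510 arrays with a median of 5.90, against 6.84, 7.34, 7.01, 6.38 and 7.15 in tTA arrays, and between 5.89 and 6.38 with a median of 5.94 in DN arrays. The tTA arrays were thus the high ones, and 1 of them overlapped the rTg4510 range. The difference between rTg4510 and tTA was -0.94 (SE 0.17, adjusted p = 0.024), not called with only those genotypes in the fit (0.112), nor without rTg4510 mouse4535 (0.0603) or mouse4666 (0.0531) or tTA mouse4580 (0.055) or mouse4637 (0.0545). Limma called 0 of 11 microglial and 0 of 9 astrocyte markers in this comparison (0.782% of all probe sets), with 1 of each at an unadjusted p below 0.05.

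**Figure D3:**
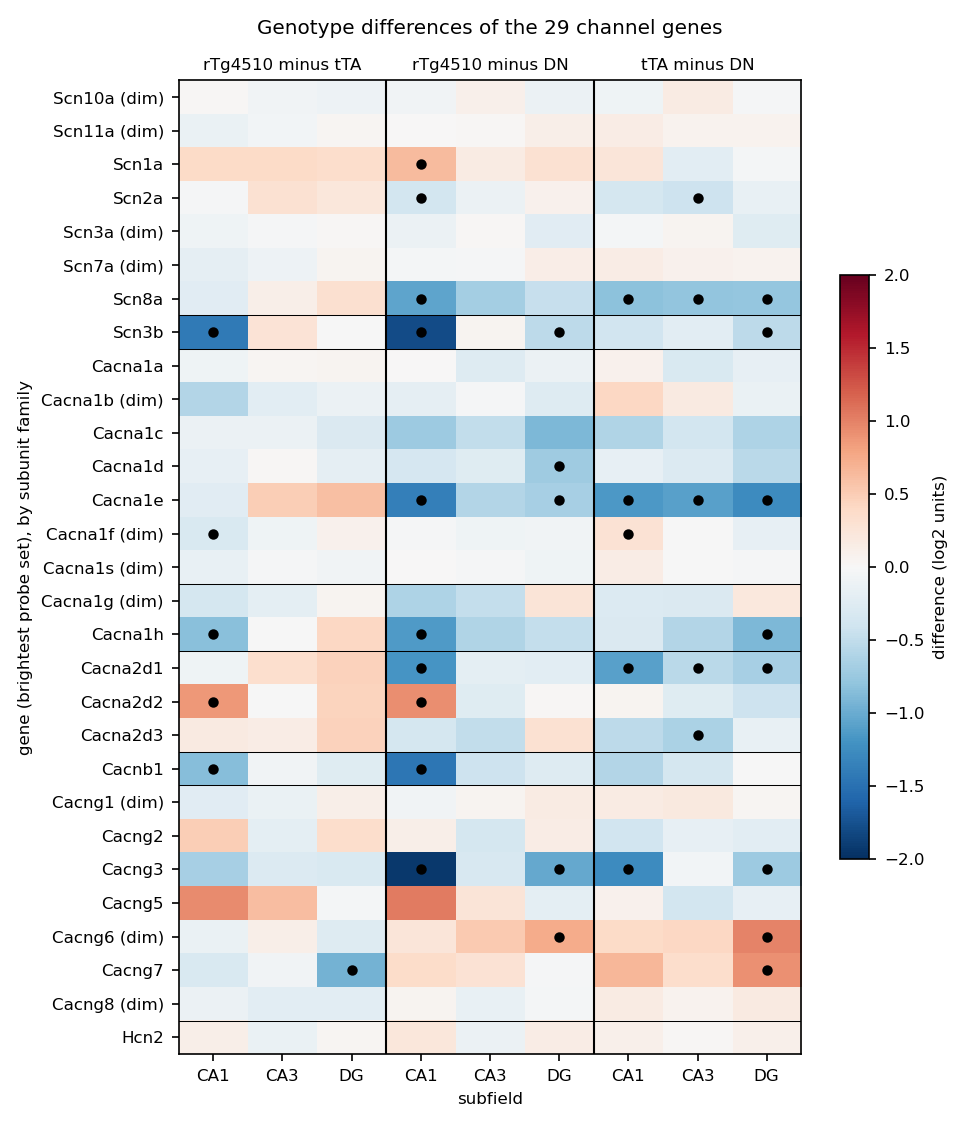
Differences in log2 level of the 29 channel genes (down the page, grouped by family) for 9 genotype comparisons, as colour from -2 to 2, with dots at adjusted p below 0.05 in limma. The rTg4510 against DN column of CA1 holds the most dots, 10, and the CA3 columns of rTg4510 against tTA and of rTg4510 against DN hold 0.

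The comparison of rTg4510 with DN mice takes both transgenes together and shares its arrays with the other 2 comparisons. In CA1, 8 members were lower and 2 higher in rTg4510 mice, 10 of 29, where the rate over all probe sets was 23.4% (11.1% higher, 12.3% lower). In DG, 4 were lower and 1 higher (8.86% of all probe sets, 4.1% higher and 4.76% lower). In CA3 limma called 0 (3.12% of all probe sets), with 6 at an unadjusted p below 0.05 and 0 by Fisher's least significant difference test. The median difference over the members was -0.07 in CA1, -0.12 in CA3 and -0.09 in DG, against 0.02, 0.01 and 0.01 over all probe sets. Over the 18 members at or above the median level it was -0.36, -0.25 and -0.20, and 11, 14 and 12 were negative. In CA1 all 11 microglial and 9 astrocyte markers were higher in rTg4510 than in DN mice and all 3 CA1 pyramidal markers lower, and all 7 oligodendrocyte markers were higher as well, by 1.30 to 1.78. The CA1 pyramidal sum was 9.73 to 10.91 in rTg4510 and 12.39 to 12.54 in DN arrays. Their part in the channel gene differences was not tested.

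Cacng3 had the largest difference from DN mice in CA1. It stood at 4.52, 5.67, 5.24, 5.29 and 5.22 in rTg4510 arrays, at 5.58, 6.09, 4.98, 6.61 and 5.98 in tTA arrays, and at 6.80, 7.08 and 7.53 as the lowest, median and highest of the DN arrays. Both rTg4510 and tTA arrays lay below all DN arrays, and overlapped each other. The rTg4510 minus DN difference was -1.92 (SE 0.24, adjusted p = 3.42e-05) and the rTg4510 minus tTA difference was -0.66, which was not called (SE 0.25, adjusted p = 0.111). In DG Cacng3 was also lower in rTg4510 than in DN mice, at 5.03 ± 0.45 and 6.05 ± 0.30 (difference -1.03, SE 0.23, adjusted p = 0.00783), and in CA3 it was not called (difference -0.33, adjusted p = 0.36).

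Cacna1e, Cacna2d1 and Scn8a had a like order in CA1. Cacna1e stood at 6.58, 6.76, 7.22, 6.95 and 6.17 in rTg4510 arrays, at 7.48, 7.19, 6.34, 7.36 and 6.40 in tTA arrays and between 7.61 and 8.50 in DN arrays with a median of 8.12. Cacna2d1 stood at 8.53, 8.23, 7.91, 7.64 and 7.26 in rTg4510 arrays, at 8.13, 7.70, 8.07, 8.16 and 7.97 in tTA arrays and between 8.65 and 9.39 in DN arrays with a median of 9.14. For both genes all rTg4510 and tTA arrays lay below all DN arrays, while rTg4510 and tTA arrays overlapped. The rTg4510 minus DN difference was -1.37 for Cacna1e (SE 0.23, adjusted p = 0.000432) and -1.18 for Cacna2d1 (SE 0.19, adjusted p = 0.000277). Scn8a stood at 7.00, 7.97, 8.91, 8.04 and 8.19 in rTg4510 arrays, at 8.24, 8.61, 7.55, 8.58 and 8.24 in tTA arrays and between 8.65 and 9.29 in DN arrays with a median of 9.15. The highest rTg4510 array reached the DN range, and the difference was -1.05 (SE 0.26, adjusted p = 0.00749). None of these 3 genes was called between rTg4510 and tTA mice in CA1 (differences -0.22, -0.09 and -0.22, adjusted p = 0.63 to 0.825).

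Of the members called against tTA mice in CA1, 4 were called against DN mice as well, and Cacna1f was not. In CA1 Scn3b differed by -1.79 (SE 0.21, adjusted p = 1.72e-05), Cacnb1 by -1.44 (SE 0.22, adjusted p = 0.000203) and Cacna1h by -1.13 (SE 0.24, adjusted p = 0.00221). Cacna2d2 was higher by 0.92 (SE 0.21, adjusted p = 0.00447), with 9.28 ± 0.49 in rTg4510 and 8.36 ± 0.29 in DN arrays. The other Cacna2d2 probe sets were not called (0.47 and 0.02, adjusted p = 0.0836 and 0.88), nor was the dimmest of Cacnb1 (-0.33, adjusted p = 0.189). Scn1a was the other member that rose. It stood at 9.12, 8.94, 9.10, 8.97 and 9.03 in rTg4510 arrays, at 8.79, 8.39, 9.14, 8.43 and 8.50 in tTA arrays and between 8.09 and 8.58 in DN arrays with a median of 8.51, so rTg4510 lay above all DN arrays. The difference was 0.63 (SE 0.13, adjusted p = 0.00202), and the second Scn1a probe set did not share it (-0.04, adjusted p = 0.89). As the mean of its probe sets Scn1a was not called (0.29, adjusted p = 0.0703).

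Scn2a fell least among the called members. It averaged 10.10 ± 0.29 in rTg4510 and 10.47 ± 0.16 in DN CA1 arrays, a difference of -0.37 (SE 0.12, adjusted p = 0.0389), with its second probe set at -0.87 (adjusted p = 0.00132). The call of the brightest probe set was lost without 7 of the 11 arrays in turn (adjusted p = 0.0532 to 0.105), all but DN mouse4797 and mouse4866 and rTg4510 mouse4549 and mouse4600. It was also lost with only the 2 genotypes in the fit (0.059) or after a further quantile normalisation (0.0783).

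In DG the called members besides Cacng3 were Cacna1d, Cacna1e, Scn3b and Cacng6. Of 11 microglial markers 7 were higher in rTg4510 mice there (median difference 1.65), as were 8 of 9 astrocyte markers (median 1.03) and 4.1% of all probe sets. The part of these markers in the channel gene differences was not tested. Cacna1d averaged 5.78 ± 0.31 in rTg4510 and 6.49 ± 0.36 in DN arrays (difference -0.71, SE 0.19, adjusted p = 0.0231), and its second probe set did not share the difference (-0.04). Cacna1e averaged 7.46 ± 0.28 in rTg4510 and 8.12 ± 0.29 in DN arrays (difference -0.66, SE 0.17, adjusted p = 0.0211), and Scn3b 7.56 ± 0.31 in rTg4510 and 8.08 ± 0.11 in DN arrays (difference -0.53, SE 0.13, adjusted p = 0.0192), with its second probe set not called (-0.22, adjusted p = 0.609). Cacng6, dim in DN mice, was higher at 5.31 ± 0.50 in rTg4510 and 4.57 ± 0.20 in DN arrays (difference 0.73, SE 0.22, adjusted p = 0.0452), with its second probe set at -0.10. Cacng6 lost its call without 10 of the 12 arrays in turn (adjusted p = 0.0531 to 0.0937), all but rTg4510 mouse4621 and mouse4666. Cacna1d lost it without DN mouse4797 (0.0626), mouse4866 (0.051) or mouse4886 (0.0505) or rTg4510 mouse4535 (0.0567) or mouse4600 (0.0509), and Cacna1e without DN mouse4797 (0.0571) or rTg4510 mouse4666 (0.0522). With the Actb covariate Cacna1d (-0.69, adjusted p = 0.101), Cacna1e (-0.60, adjusted p = 0.116) and Cacng6 (0.63, adjusted p = 0.215) were not called. As the mean of its probe sets Scn3b was not called (difference -0.37, adjusted p = 0.117).

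**Figure D4:**
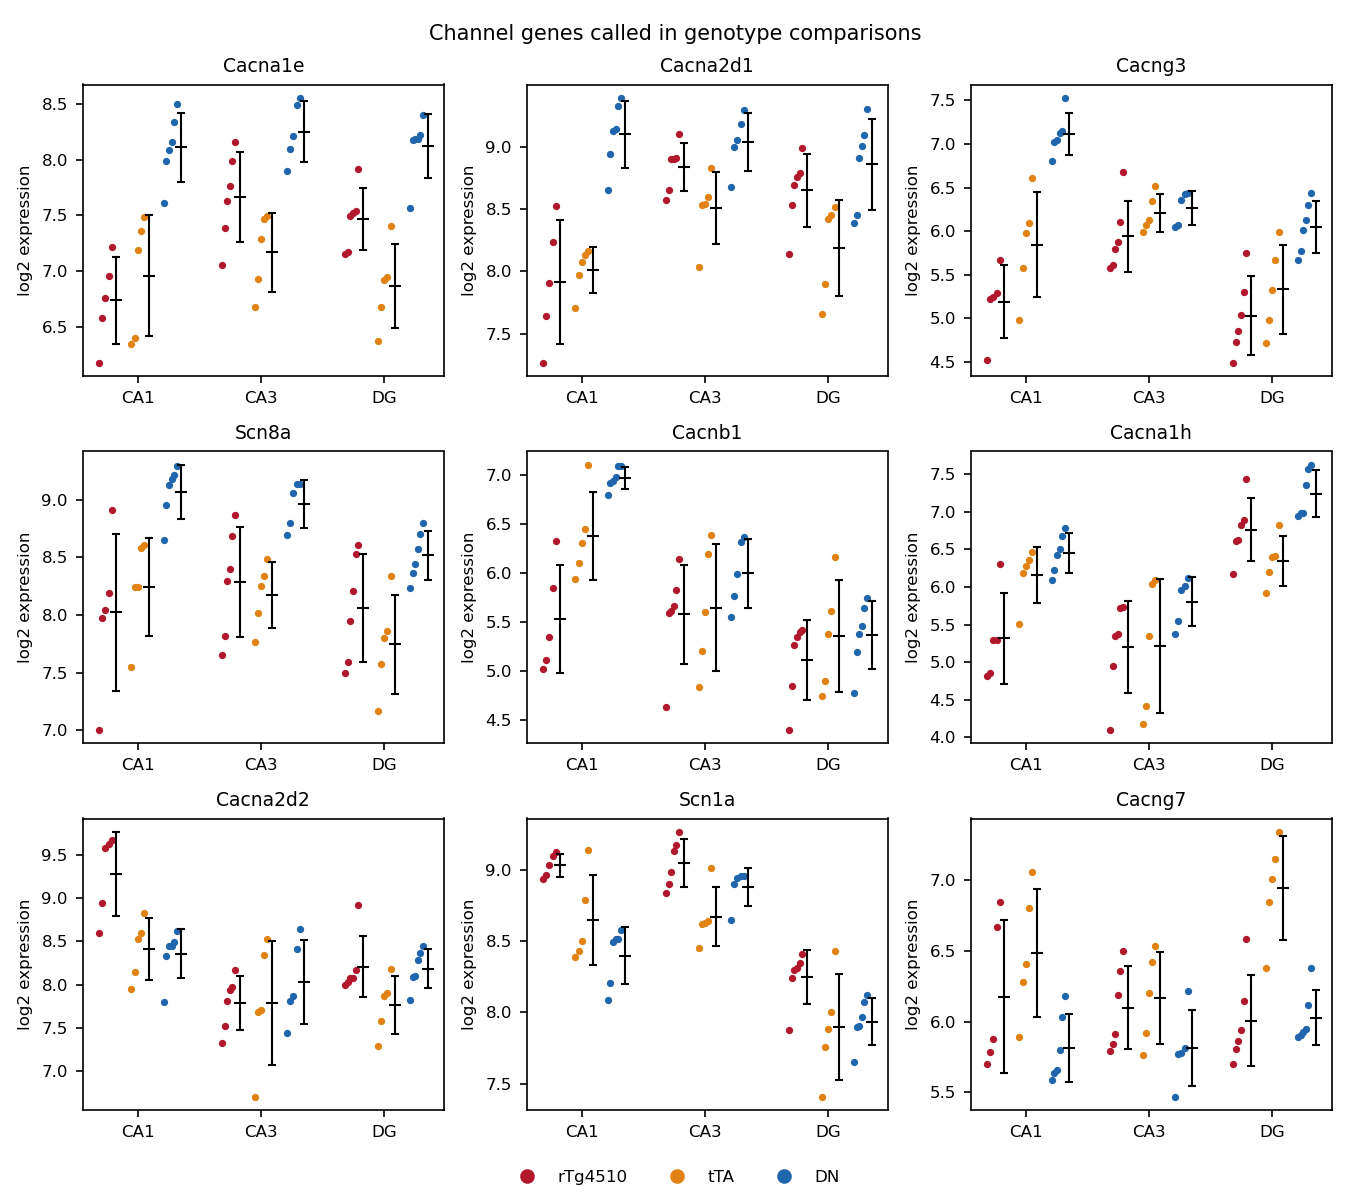
Log2 RMA level (vertical axes) of 9 channel genes in CA1, CA3 and DG; points are single arrays of rTg4510, tTA and DN mice, in that order and sorted by value, and bars give the mean ± SD. In CA1 the rTg4510 and tTA arrays of Cacna1e lie at 6.17 to 7.48, below the DN arrays at 7.61 to 8.50, and in DG the tTA arrays of Cacng7 average 6.94 against 6.03 in DN arrays.

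The tTA mice, which carry the transactivator without tau, were compared with DN mice, and these arrays also enter the comparisons above. In CA1 4 members were lower and 1 higher in tTA mice, 5 of 29, with 16.2% of all probe sets called (7.31% higher and 8.85% lower). In CA3 5 were lower and 0 higher (9.09% of all probe sets, 4.12% higher and 4.97% lower). In DG 6 were lower and 2 higher (16.7% of all probe sets, 7.22% higher and 9.44% lower). The median difference over the members was -0.03 in CA1, -0.21 in CA3 and -0.15 in DG, against 0.05, 0.03 and 0.03 over all probe sets. Over the 18 members at or above the median level it was -0.36, -0.33 and -0.31, and 12, 16 and 16 of the 18 were negative.

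Cacna1e, Cacna2d1 and Scn8a were lower in tTA mice in all 3 subfields. In CA3 Cacna1e stood at 7.49, 7.29, 6.93, 7.46 and 6.68 in tTA arrays, against 8.49, 8.21, 8.55, 8.09 and 7.90 in DN arrays, with no overlap. In DG it stood at 7.40, 6.95, 6.37, 6.92 and 6.68 in tTA arrays, against 7.57 to 8.40 in DN arrays with a median of 8.18, again with no overlap. The Cacna1e difference was -1.15 in CA1 (SE 0.23, adjusted p = 0.0037), -1.08 in CA3 (SE 0.21, adjusted p = 0.00445) and -1.26 in DG (SE 0.18, adjusted p = 0.000172). The DG difference did not differ from that in CA1 (-0.10, adjusted p = 0.931) or CA3 (-0.18, adjusted p = 0.907) by more than the error. The CA1 call was lost with the Actb covariate (0.121).

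For Cacna2d1 the difference was -1.09 in CA1 (SE 0.19, adjusted p = 0.00144), -0.53 in CA3 (SE 0.14, adjusted p = 0.0301) and -0.67 in DG (SE 0.20, adjusted p = 0.0251). In CA3 it stood at 8.59, 8.83, 8.54, 8.53 and 8.04 in tTA arrays, against 9.29, 9.05, 8.99, 9.18 and 8.68 in DN arrays, which overlapped. The CA3 call was lost without 6 of the 10 arrays in turn (adjusted p = 0.0554 to 0.0827), all but DN mouse4886 and tTA mouse4570, mouse4580 and mouse4626. The DG call was lost without DN mouse4797 (0.0575), mouse4825 (0.0601) or mouse4883 (0.0516) or tTA mouse4580 (0.0724) or mouse4637 (0.0665). Both were lost with the Actb covariate (0.105 in CA3 and 0.177 in DG).

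Scn8a differed by -0.83 in CA1 (SE 0.26, adjusted p = 0.0403), -0.79 in CA3 (SE 0.21, adjusted p = 0.0251) and -0.77 in DG (SE 0.21, adjusted p = 0.0195). In CA3 it stood at 8.25, 8.49, 7.76, 8.34 and 8.02 in tTA arrays, against 9.14, 9.14, 9.06, 8.69 and 8.80 in DN arrays, with no overlap. The CA1 call was lost without 8 of the 11 arrays in turn (adjusted p = 0.0572 to 0.11), all but DN mouse4797 and tTA mouse4580 and mouse4626. The CA3 call was lost without DN mouse4797 (0.0648), mouse4825 (0.0632) or mouse4866 (0.0643) or tTA mouse4592 (0.0665) or mouse4637 (0.0543), and the DG call without tTA mouse4592 (0.061). With the Actb covariate all 3 were lost (0.479, 0.113 and 0.321 in CA1, CA3 and DG).

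Further sodium channel members were called in single subfields. In CA3 Scn2a stood at 10.23, 10.04, 9.82, 10.08 and 10.01 in tTA arrays, against 10.58, 10.40, 10.62, 10.51 and 10.18 in DN arrays, which overlapped (difference -0.42, SE 0.10, adjusted p = 0.0158), a call lost without DN mouse4866 (0.0515). In CA1 Scn2a passed on its second probe set (-0.77, adjusted p = 0.00651) but not on the brightest (-0.35, adjusted p = 0.0635). In DG Scn3b averaged 7.56 ± 0.25 in tTA and 8.08 ± 0.11 in DN arrays (difference -0.52, SE 0.14, adjusted p = 0.0163), lost without tTA mouse4592 (0.0509), and its second probe set was not called (-0.42, adjusted p = 0.229). Scn3b was not called in CA1 (difference -0.38, SE 0.21, adjusted p = 0.218), where its rTg4510 arrays were low. The brightest Scn1a probe set was not called in any subfield (differences 0.25, -0.21 and -0.04 in CA1, CA3 and DG). The second Scn1a probe set was lower in tTA mice in all 3, by a difference of -0.80 in CA1 (adjusted p = 0.00734), -0.87 in CA3 (adjusted p = 0.00383) and -0.66 in DG (adjusted p = 0.0457), so the call for Scn1a depended on the probe set in every subfield and the sign of its difference in CA1.

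The remaining calls were of calcium channel and gamma subunits. In CA1 Cacng3 averaged 5.85 ± 0.61 in tTA and 7.11 ± 0.24 in DN arrays (difference -1.27, SE 0.24, adjusted p = 0.00263), and in DG 5.33 ± 0.51 in tTA and 6.05 ± 0.30 in DN arrays (difference -0.72, SE 0.24, adjusted p = 0.0453). The DG call was lost without 7 of the 11 arrays in turn (adjusted p = 0.0655 to 0.132), all but DN mouse4866 and mouse4883 and tTA mouse4626 and mouse4637. In CA3 Cacna2d3 stood at 7.21, 7.72, 7.64, 7.83 and 7.69 in tTA arrays, against 8.26, 8.19, 8.34, 8.14 and 8.36 in DN arrays, with no overlap (difference -0.64, SE 0.15, adjusted p = 0.0145). In DG Cacna1h stood at 6.82, 6.41, 6.20, 6.40 and 5.91 in tTA arrays, against 6.94 to 7.62 in DN arrays with a median of 7.16, with no overlap (difference -0.89, SE 0.20, adjusted p = 0.0057). Cacna1f, dim in both groups, was higher in CA1 at 4.11 ± 0.08 in tTA and 3.82 ± 0.14 in DN arrays (difference 0.29, SE 0.08, adjusted p = 0.0224), a call lost without DN mouse4866 (0.0524) or tTA mouse4580 (0.0516).

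Cacng7 and Cacng6 were higher in the DG of tTA mice. Cacng7 averaged 6.94 ± 0.36 in tTA and 6.03 ± 0.19 in DN arrays (difference 0.92, SE 0.17, adjusted p = 0.00144). Cacng6 stood at 5.38, 6.33, 5.73, 5.28 and 5.10 in tTA arrays, against 4.34 to 4.88 in DN arrays with a median of 4.54, with no overlap (difference 0.99, SE 0.23, adjusted p = 0.00681), while its second probe set was level (-0.01). With the Actb covariate neither was called (0.0908 for Cacng7 and 0.128 for Cacng6), nor were Cacna1h (0.225) and Cacng3 (0.207) in DG, Cacna2d3 in CA3 (0.0711), or Cacng3 (0.0669) and Cacna1f (0.152) in CA1. The mean Actb 3′ minus 5′ value was -0.70 in tTA and -0.37 in DN arrays of CA1, -0.64 in tTA and -0.45 in DN arrays of CA3, and -0.61 in tTA and -0.30 in DN arrays of DG, so this control moved with the genotype.

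Microglial and astrocyte markers moved with the tTA comparison too. Of 11 microglial markers 3, 9 and 8 were higher in tTA mice in CA1, CA3 and DG, of 9 astrocyte markers 4, 6 and 8, and of 7 oligodendrocyte markers 3, 0 and 1. Over all probe sets 7.31%, 4.12% and 7.22% were higher. In DG the microglial sum was 10.78 to 11.73 in tTA and 9.61 to 10.23 in DN arrays, and the astrocyte sum 13.07 to 13.51 in tTA and 12.01 to 12.67 in DN arrays. Of 7 pan-neuronal markers 2, 1 and 1 were lower, where 8.85%, 4.97% and 9.44% of all probe sets were. Of the markers of each subfield's own principal cells 1 of 3 was lower in CA1, 2 of 4 in CA3 and 2 of 5 in DG. Their part in the channel gene differences was not tested.

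Whether the tTA minus DN difference depended on the subfield was tested for DG against CA1 and CA3. Of the members, 1 was called for DG minus CA1 (1.65% of all probe sets), the dim Cacna1f at -0.45 (SE 0.12, adjusted p = 0.0477). That call was lost without 19 of the 22 arrays in turn (0.0525 to 0.109), all but the CA1 array of DN mouse4806 and the DG arrays of DN mouse4886 and tTA mouse4570, and without the mouse as a block (0.0882). For DG minus CA3 limma called 0 members (1.24% of all probe sets), with 2 at an unadjusted p below 0.05.

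Genes that act with these channels were described as lists by counts and medians, to be read against the rate of calls over all probe sets. Each gene was given by its brightest probe set, while that rate covers all probe sets, dim ones included. A count above the rate was not tested as an excess. Of the sodium channel partners, 10 of 16 were measured. Between rTg4510 and tTA mice in CA1, 1 of the 10 was called, Fgf14, which binds the sodium channel C-terminus at the axon initial segment (difference -0.68, adjusted p = 0.00252), where the rate over all probe sets was 10.6%, and the list median was -0.02. Between tTA and DN mice in DG, 6 of the 10 were lower and 0 higher, against rates of 9.44% and 7.22% over all probe sets, with a median of -0.42 against 0.03 over all probe sets. They included Ank3, the ankyrin G scaffold of the axon initial segment (-0.45, adjusted p = 0.0117), and Fgf13, another channel-binding factor (-0.38, adjusted p = 0.00211). In CA1 and CA3 of the same comparison 3 and 1 were lower, against rates of 8.85% and 4.97%. Fgf14 was among the lower genes in DG (-0.50, adjusted p = 0.00107) and was the 1 in CA3 (-0.46, adjusted p = 0.00688). It was not called between tTA and DN mice in CA1. Between rTg4510 and DN mice Fgf14 was lower in CA1, CA3 and DG (-1.02, -0.68 and -0.73, adjusted p = 1.52e-05, 0.000508 and 3.41e-05). Its rTg4510 minus tTA difference was called for CA1 minus CA3 (-0.47, adjusted p = 0.0373) and CA1 minus DG (-0.46, adjusted p = 0.0314). The cause was not tested. In CA1, 4 of the 10 partners were lower and 1 higher in rTg4510 than in DN mice, against rates of 12.3% and 11.1%.

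Of the calcium channel partners, 16 of 21 were measured. Between rTg4510 and tTA mice in CA1, 2 were higher and 4 lower, against rates of 6.01% and 4.62%, with a median of -0.19 against -0.03 over all probe sets. Gem, a small GTPase that binds calcium channel beta subunits, rose by 1.34 (adjusted p = 0.00176) and Ahnak, a large scaffold protein, by 1.14 (adjusted p = 0.00125). Stac, an adaptor of L-type channels, fell by 1.73 (adjusted p = 0.00421), and the calcium/calmodulin kinase subunits Camk2b and Camk2a differed by -0.85 (adjusted p = 0.00277) and -0.53 (adjusted p = 0.0256). Stx1a, a syntaxin of the release machinery, differed by -0.67 (adjusted p = 0.0325). Between rTg4510 and DN mice in CA1, 3 were higher and 5 lower, against rates of 11.1% and 12.3%, and Stac differed by -2.74 (adjusted p = 1.97e-05).

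Of the HCN partners 4 of 5 were measured. Reln, the extracellular protein reelin, was the 1 called between rTg4510 and tTA mice in CA1, higher by 1.13 (adjusted p = 0.019). The rates over all probe sets were 6.01% higher and 4.62% lower. Against DN mice in CA1, 1 was higher in rTg4510 mice (Reln) and 1 lower, with rates of 11.1% and 12.3%. The lower one was Pex5l, which encodes the HCN auxiliary subunit TRIP8b (-1.43, adjusted p = 0.000229). Pex5l was also lower in tTA than in DN mice in CA1 (-0.79, adjusted p = 0.0255), and was not called there between rTg4510 and tTA mice. Hcn2 itself was not called in any genotype comparison, its differences lying between -0.14 and 0.22. Of the genes of intracellular calcium release and clearance, 17 of 23 were measured. Between rTg4510 and tTA mice in CA1, 3 were lower, against a rate of 4.62%, the sodium/calcium exchanger Slc8a2 (-0.84, adjusted p = 0.0294), the ryanodine receptor Ryr1 (-0.58, adjusted p = 0.0251) and the calcium sensor Hpca (-0.29, adjusted p = 0.0345). Against DN mice in CA1, 8 of the 17 were lower and 2 higher in rTg4510 mice, with rates of 12.3% and 11.1%. In tTA against DN mice 4, 3 and 5 of the 17 were lower in CA1, CA3 and DG, and 0, 0 and 2 higher. The rates over all probe sets were 8.85%, 4.97% and 9.44% lower and 7.31%, 4.12% and 7.22% higher. The largest fall in CA1 was of Slc8a1 (-1.44, adjusted p = 0.00135), and Ryr3 was lower there too (-1.03, adjusted p = 0.0086). The ryanodine receptor Ryr2 was lower in all 3 subfields (-0.88, -0.82 and -1.21, adjusted p = 0.00218, 0.00224 and 0.00102). So was Atp2a2, the endoplasmic reticulum calcium pump (-0.78, -0.89 and -0.83, adjusted p = 0.00324, 0.000494 and 3.65e-05). Between rTg4510 and tTA mice in CA3 limma called 0 genes of the 4 lists (4, 3, 1 and 2 at an unadjusted p below 0.05, in the order above). In DG the 1 called was Atp2a2, higher by 0.56 (adjusted p = 0.0226). Over all probe sets the rates were 1.13% in CA3 and 0.782% in DG. In DG Atp2a2 was lower in tTA than in DN mice, as above, and was not called between rTg4510 and DN mice.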

How the data were processed

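RNA from 49 laser-captured samples of 17 mice was hybridised to HT MG-430A arrays after amplification. The deposited values are log2 intensities that the authors normalised with RMA (version not given in the sources used here), 22716 probe sets per array, used as deposited after leaving out 90 control probe sets. Gene symbols came from the platform annotation: 18003 tested probe sets had 1 symbol, 287 several and 4336 were not listed. All 41 member probe sets matched RefSeq by Entrez ID.

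Genotypes were compared within a subfield in limma 3.58.1 (R 4.3.3), with 3 genotypes sharing 1 estimate of the spread, and Benjamini-Hochberg adjustment over 22626 probe sets at 0.05 with no fold minimum. Subfields of DN mice and differences of effects were fitted over all 49 arrays and 9 groups with the mouse as a random block (consensus correlation 0.117). Arrays of a mouse come from the same animal; their deviations from the group means had a median correlation of 0.119 over 47 pairs (-0.148 to 0.323), against -0.00146 between mice. No 2 arrays held identical values. The steps were tested on simulated data.

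Text names every member called in a genotype comparison or in a difference of effects, and the 4 largest called in each direction per subfield pair. The members and lists were chosen with earlier results of these data known. Alternatives left out each array in turn (keeping the within-mouse correlation at its full value), restricted genotypes or probe sets, weighted arrays, repeated quantile normalisation, added the Actb 3′ minus 5′ signal, used the methods' Fisher test, averaged a gene's probe sets, or dropped the block. P-values of the genotype comparisons within a subfield measure the spread between mice. Those of the subfield comparisons and differences of effects, fitted with the mouse as a block, also draw on the spread between arrays of the same mouse. The number of arrays limits the precision.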

Additional observations from a re-analysis of the deposited data

Results flagged for a closer look

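The rTg4510 minus tTA difference was called as differing between subfields for 3 members. Of these, 1 was called for CA1 minus CA3 and 3 for CA1 minus DG (3.88% and 5.45% of all probe sets). For Scn3b the CA1 minus CA3 value of that difference was -1.69 and the CA1 minus DG value -1.41. For Cacna1h and the dim Cacng1 the CA1 minus DG value was -1.25 and -0.34. These 2 calls were lost without 15 and 2 of the 21 arrays in turn. The tTA minus DN difference was called as differing between subfields for the dim Cacna1f, at -0.45 for DG minus CA1 (1.65% of all probe sets). That call was lost without 19 of the 22 arrays in turn.

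Single arrays also stood apart from their group. Over 22 named genes and 9 groups, 15 of 198 sets (7.58%) had such an array, where chance alone gives about 5%. In DN mice, Cacna1c was 6.95 in CA3 of mouse4886 (next 8.12), Cacna1e 7.56 in DG of mouse4806 (next 8.18), Cacna1g 3.47 in CA1 of mouse4797 (next 4.19), Cacna2d2 7.80 in CA1 of mouse4797 (next 8.34), Cacng5 5.73 in DG of mouse4883 (next 6.12), Cacng6 3.96 in CA3 of mouse4797 (next 4.40), Scn1a 8.65 in CA3 of mouse4797 (next 8.90), all the lowest, and Cacng1 3.66 in DG of mouse4886 (next 3.51), the highest. In rTg4510 mice, Cacna1d was 5.47 in CA3 of mouse4666 (next 5.95), Cacnb1 4.63 in CA3 of mouse4549 (next 5.59) and Scn1a 7.88 in DG of mouse4600 (next 8.24), the lowest, while Cacna2d2 was 8.92 in DG of mouse4653 (next 8.16) and Cacng6 6.28 in DG of mouse4535 (next 5.34), the highest. In tTA mice, Cacng2 was 6.52 in CA3 of mouse4637 (next 7.18) and Cacng5 3.14 in CA3 of mouse4570 (next 4.55), both the lowest. DN mouse4797 held 4 of the 15.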

How the results depend on the processing

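Over 68 named differences and all alternatives, 982 of 1185 values kept their direction and call, 203 kept the direction and lost the call, and 0 reversed. Members called between rTg4510 and tTA mice fell to 1 in CA1 and to 0 in DG with only those genotypes in the fit, and to 1 in CA1 with the Actb covariate. In CA3 they became 2 with a gene's probe sets averaged. Between rTg4510 and DN mice, CA3 gained 1 with probe sets at or above the median level only, and DG kept a count of 2 with the Actb covariate and 2 with probe sets averaged. Between tTA and DN mice, the Actb covariate left 1 in CA1, 2 in CA3 and 2 in DG. The fit of those genotypes alone gave 10 in CA1. Array weights gave 12 for CA3 against DG in DN mice, and averaging gave 2 for the rTg4510 minus tTA difference in CA1 minus CA3. With no replicate block, the mouse pairing being left out, the DG minus CA1 count of the tTA minus DN difference was 0, as it was with probe sets at or above the median level. The cause was not tested.

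Leaving out single arrays gave, for rTg4510 against tTA, 1 to 7 members called in CA1, 0 to 1 in CA3 and 0 to 2 in DG; for rTg4510 against DN, 9 to 12, 0 to 2 and 2 to 5; for tTA against DN, 3 to 6, 2 to 5 and 5 to 8. In DN mice the range was 6 to 7 for CA1 against CA3, 6 to 9 for CA1 against DG and 6 to 9 for CA3 against DG. For differences of effects it was 1 to 3 (rTg4510 minus tTA, CA1 minus CA3), 1 to 4 (CA1 minus DG), 0 to 1 (tTA minus DN, DG minus CA1) and 0 (DG minus CA3). With the methods' Fisher test Cacna1h (adjusted p = 0.072) and Cacnb1 (0.056) were not called between rTg4510 and tTA mice in CA1, nor were Cacng6 between rTg4510 and DN mice in DG (0.0805), Scn8a between tTA and DN mice in CA1 (0.0677) and Cacng3 between them in DG (0.0763). Probe sets below the median level carry the least signal over background.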

Other observations

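Cacng5 had the widest spread of the brighter members in CA1. It stood at 5.77, 5.61, 8.01, 7.49 and 7.35 in rTg4510 arrays, at 7.76, 7.11, 4.36, 3.98 and 6.29 in tTA arrays, and at 3.92, 6.10 and 7.14 as the lowest, median and highest of the DN arrays. The 3 genotypes overlapped between 5.61 and 7.14, with every rTg4510 array at 5.61 or above, and no genotype difference was called (limma, rTg4510 minus tTA 0.94, SE 0.77, adjusted p = 0.5, and rTg4510 minus DN 1.03, SE 0.74, adjusted p = 0.344). In DG the DN arrays lay between 5.73 and 6.34.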
